A study of Mus musculus with 4 samples.

Results

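Translation initiation and elongation factors were compared between Celf1 conditional knockout (Celf1 cKO) and Control mouse lenses. Members were taken by name, as genes whose symbol in the deposited table begins with Eif or Eef, with the sex-linked pair Eif2s3x and Eif2s3y left aside, and a probe was kept when its detection p-value was under 0.05 on at least 2 of the 4 arrays. Of 116 probes with such a symbol, 86 were kept, among 16262 kept probes in all. They measured 51 of the 61 member genes on the array, out of 11516 genes tested. All 4 samples were lenses of mice at postnatal day 6, with RNA of 1 lens on each Illumina MouseWG-6 v2.0 BeadChip array and n = 2 in each group.

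A Celf1 cKO lens has a germline lacZ knock-in allele together with a floxed allele whose exon 5 is removed by a Pax6GFPCre transgene that is active in the developing lens. A Control lens has the lacZ knock-in allele and a wild-type allele, so that all 4 lenses lack at least 1 working copy of Celf1. The mice had a mixed background of C57BL/6 and FVB, and Pax6GFPCre is not named for the Control mice. CELF1 is an RNA-binding protein that acts on splicing, decay and translation of mRNAs. The labels name separate samples A and B in each group, and p-values measure the spread between these samples.

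Protein synthesis begins when eIF2, loaded with GTP and the initiator tRNA, joins the small ribosomal subunit together with eIF1, eIF1A, eIF3 and eIF5. The eIF4 factors bring this complex to the mRNA, with eIF4E binding the cap, eIF4G serving as the scaffold and the helicase eIF4A unwinding the leader. eIF2B recharges eIF2 with GTP, and kinases that phosphorylate the alpha subunit of eIF2 block this step, which lowers general initiation and favours translation of Atf4. After subunit joining by eIF5B, eEF1A delivers aminoacyl-tRNAs and eEF2 moves the ribosome along. Fiber cells of the lens make very large amounts of crystallin and then lose their nuclei and organelles, so that protein synthesis in them is confined to a window of their life.

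The region around the annotated start of transcription is shown for the 4 called genes, described below, and for Eef1a1 and Eif3f. Many mRNAs of the translation machinery begin with a cytosine followed by a run of pyrimidines, through which mTORC1 and LARP1 control their translation. Each window holds 40 bases before and 20 bases from the annotated start, read 5′ to 3′ on the strand of the gene from RefSeq on GRCm38.p6. Capitals mark a run of C followed by at least 4 C or T that begins within 5 bases of that start. The windows lie at chr9:120492566-120492625 (plus strand) for Eif1b, chr5:143817752-143817811 (plus) for Eif2ak1, chr1:87213871-87213930 (plus, the first of 3 annotated starts) for Eif4e2, chr2:181156996-181157055 (minus) for Eef1a2, chr9:78481705-78481764 (minus) for Eef1a1 and chr7:108934375-108934434 (plus) for Eif3f.
Eif1b: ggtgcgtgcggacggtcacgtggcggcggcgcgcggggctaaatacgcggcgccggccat
Eif2ak1: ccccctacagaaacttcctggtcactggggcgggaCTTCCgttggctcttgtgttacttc
Eif4e2: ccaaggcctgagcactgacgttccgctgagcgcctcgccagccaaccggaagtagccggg
Eef1a2: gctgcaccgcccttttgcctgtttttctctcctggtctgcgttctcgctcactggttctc
Eef1a1: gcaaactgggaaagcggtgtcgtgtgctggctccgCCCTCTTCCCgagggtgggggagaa
Eif3f: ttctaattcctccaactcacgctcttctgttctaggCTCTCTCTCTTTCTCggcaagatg

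The window of Eef1a1 has a run of 10 pyrimidines at the start, while that of Eef1a2 has none that begins within 5 bases of the start and holds a pyrimidine stretch farther upstream. A window was given for 40 of the 51 tested members, and 11 of them (27.5%) hold such a run, against 21.2% of all 27025 genes with a window. The median log2 fold change was -0.03 for the 11 members with a run and -0.01 for the 29 without one. Their ranges were -0.72 to 0.40 and -0.70 to 1.17, and the difference was not tested. The starts are those of the annotation and were not measured in lens. The runs of Eif2ak1 and Ago4, of 5 bases beginning at -5, lie wholly before the annotated start. The 11 genes are therefore not a set of mRNAs known to begin with a run.

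The probes that carry the calls are shown by the first 30 of their 50 bases, since each value rests on hybridisation to this stretch. Cross-hybridisation between close paralogs, such as Eif1 and Eif1b, was not tested. Positions of whole probes are those of the files, whose genome build is not named. The Eif1b probe lies at chr9:120343778-120343827 on the plus strand. The Eef1a2 probes lie on the minus strand at chr2:180882406-180882455 (probe 1) and chr2:180882513-180882562 (probe 2). Of the Eif4e2 probes, probe 2 lies at chr1:89134809-89134858 and probe 3 at chr1:89111008-89111057 on the plus strand, while Eif4e2 probe 1 and the Eif2ak1 probe are given without a position.
Eif1b probe: ccactcacacctgcatggctacagaaaaca
Eif2ak1 probe: tccacttggcatcatcctgcagcttgccct
Eif4e2 probe 1: aactacagcccgaatccgggatactcttcg
Eif4e2 probe 2: ccggtgctgggtctgagctgagcgttatca
Eif4e2 probe 3: ttgtcttctgcaagcggggacggtaacaga
Eef1a2 probe 1: cttccgcgccagcgctcaccacgctcagtg
Eef1a2 probe 2: gcgcatgtctgcacctccgcttgtaagagg

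The arrays of the cKO lenses were the brighter ones, so that brightness and genotype cannot be told apart. Detected probes numbered 16261 and 16925 for cKO lenses and 14542 and 14180 for Control lenses, and the median unnormalized intensity of the 86 member probes was 512 and 581 against 339 and 307. Xist was above background with cKO RNA alone, in both lenses, while the Y-linked Ddx3y was detected on all 4 arrays, with log2 signals of 6.86 and 4.83 in cKO lenses and 9.06 and 8.88 in Control lenses. The labels give no sex, and genotype and these transcripts cannot be told apart. All 51 tested members lie on autosomes in RefSeq. Celf1 itself was lower in cKO lenses, with log2 signals of 7.51 and 7.01 against 8.78 and 8.62 and a log2 fold change of -1.44 ± 0.20 (SE) at a limma adjusted p of 0.011. All 8 lens markers were detected, and Bfsp2 was called lower. Markers of retina and pigment cells were detected for 1 of 5 genes each, of muscle for 0 of 4, of blood for 2 of 4, of vessels for 4 of 4 and of macrophages for 3 of 4. Of the other tested markers, Pde6b of retina (log2 fold change 0.49 ± 0.14, SE) and Cd68 of macrophages were above background on the cKO arrays alone, which fixes their direction. Of lens epithelium, Foxe3 was called lower. Cdh1 had both cKO values below both Control values (-0.54 ± 0.21, SE) and was not called. The part of these markers in the results below was not tested.

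Few translation factors were called between the genotypes when the distributions of the arrays were matched by quantile normalization. Values below are log2 signals after background correction and quantile normalization, and a gene was called when its limma adjusted p was under 0.05, its log2 fold change exceeded 0.58 in size and its mean log2 signal exceeded 4.6. Of the 51 tested members, 4 were called (7.84%), while 11.7% of all genes were called. Eif1b, Eif4e2 and Eef1a2 were elevated in cKO lenses, where 6.01% of all genes were called elevated. Eif2ak1 was reduced, where 5.66% of all genes were called reduced. Eef1a2 passed the detection filter through the cKO arrays alone, and the other 3 called genes were detected in both groups. The members' log2 fold changes ran from -0.72 to 1.17 with a median of -0.02, beside a median of 0.01 for all genes, and 23 were positive and 28 negative. Both cKO values lay above both Control values for 15 members (29.4%) and below them for 15 (29.4%), while the shares among all genes were 32.6% and 29.7%. With this normalization the member counts thus lay near or below the background of the array. With arrays set to the same median 35 members were called (68.6%, beside 47.0% of all genes), and with no normalization between arrays 37 (72.5%, beside 50.3%), all elevated. In RNA of a whole lens, fewer cells of a type and less RNA per cell cannot be told apart.

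**Figure D1:**
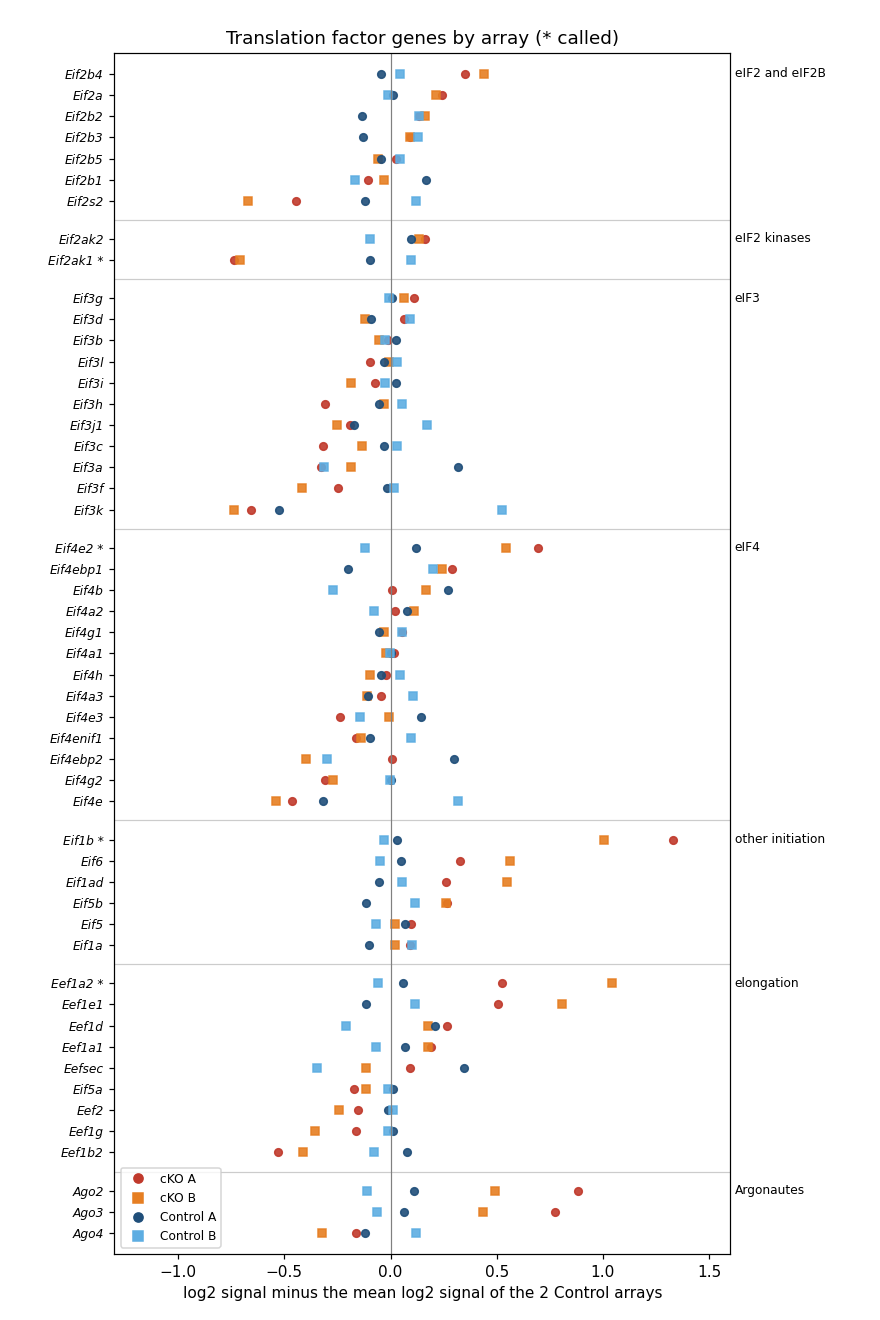
Log2 signal of each of the 51 tested translation factor genes on each of the 4 arrays, minus the mean of the 2 Control arrays, with genes sorted by role and called genes starred. Red and orange symbols are the cKO lenses and blue symbols the Control lenses. Most genes lie close to 0 on all arrays, and the cKO symbols of Eif1b lie at least 1 log2 unit above the Control mean.

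Among the factors of start codon selection, scanning and subunit joining, Eif1b showed the change of largest size among the members. Eif1b encodes a close relative of eIF1, the factor that guards the choice of the start codon. Its log2 signal was 11.37 in cKO A and 11.05 in cKO B, against 10.08 in Control A and 10.01 in Control B. The genotypes did not overlap, and the cKO lenses differed from each other by more than the Control lenses did. Eif1b was elevated 2.24-fold, with a log2 fold change of 1.17 ± 0.16 (SE) at a limma adjusted p of 0.011. Its unnormalized intensities were 3271 and 2771 in cKO lenses and 897 and 676 in Control lenses, on arrays that were brighter for cKO lenses in general. The call was lost without Control B, without a detection filter and with treat, a test against the fold threshold itself, and held in the other settings tried.

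All 6 tested members of this group had positive log2 fold changes, as did 5883 of all 11516 genes, and the group median was 0.33. Each of the 6 stayed positive relative to the all-gene median in all 14 settings that used the 4 arrays. The log2 fold changes of Eif1a and Eif5 turned negative in 1 fit each that left out a lens. Eif1b was the 1 called (16.7%, beside 11.7% of all genes). The value of Eif1ad, an eIF1A-like protein, was 0.40 ± 0.16 (SE) and includes a RIKEN-named probe outside the naming rule, while its 2 probes within the rule gave 0.27 ± 0.17 and 0.14 ± 0.17. Eif6, a factor that keeps the large ribosomal subunit from joining too early, had log2 signals of 9.73 and 9.96 in cKO lenses and 9.45 and 9.35 in Control lenses. Its groups did not overlap, and its log2 fold change of 0.44 ± 0.15 (SE) missed the threshold (limma adjusted p = 0.099). The lowest values of the group were those of Eif5, the GTPase activator of eIF2, at 0.06 ± 0.14 (SE), and of Eif1a, which works with eIF1 in scanning, also at 0.06 ± 0.15. In both genes the cKO and Control values overlapped. Eif1 itself is named by an older symbol in the files and is therefore no member, and it had a log2 fold change of -0.28 ± 0.16 (SE) at a limma adjusted p of 0.27.

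The eIF2 kinases were divided. Of the 4 kinase genes on the array, Eif2ak1 and Eif2ak2 were tested, while Eif2ak3 (PERK, the kinase of endoplasmic reticulum stress) was detected on at most 1 array and Eif2ak4 (GCN2, the kinase of amino acid shortage) on none. Eif2ak1, which encodes the heme-regulated kinase HRI, had log2 signals of 6.59 in cKO A and 6.62 in cKO B, against 7.23 in Control A and 7.42 in Control B. Both cKO values lay below both Control values. Eif2ak1 was reduced in cKO lenses, its log2 fold change being -0.72 ± 0.14 (SE) at a limma adjusted p of 0.027. This reduction is relative to the brightness of the arrays. The unnormalized intensities were 145 and 157 in cKO lenses and 152 and 135 in Control lenses, which overlap, and the log2 fold change was 0.07 with no normalization between arrays and 0.03 with arrays set to the same median. Measured against the median of all genes, it lay between -0.74 and -0.50 in all 14 settings that used the 4 arrays, and was called in 9 of them. When a lens was left out, the call held without Control A and was lost without cKO A, cKO B or Control B.

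Eif2ak2, which encodes the kinase PKR that is activated by double-stranded RNA, had log2 signals of 6.90 and 6.88 in cKO lenses and 6.84 and 6.64 in Control lenses. The cKO values lay just above the Control values. Its log2 fold change was 0.15 ± 0.14 (SE), with a 95% confidence interval from -0.20 to 0.49, and it was not called (limma adjusted p = 0.52). The difference between the kinases was not tested.

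The tested members of the eIF2 and eIF2B group, with Eif2a, gave 0 calls by limma among 7 genes, with 2 of the 7 (28.6%) at an unadjusted p under 0.05, beside 31.9% of all genes. Eif2s1, the alpha subunit that is phosphorylated, was detected on 0 arrays. Eif2s2, the beta subunit of eIF2, had log2 signals of 8.40 and 8.18 in cKO lenses and 8.73 and 8.97 in Control lenses. It was the lowest of the group, with both cKO values below both Control values and a log2 fold change of -0.56 ± 0.16 (SE) at a limma adjusted p of 0.066. Its 2 probes gave -0.67 ± 0.16 and -0.44 ± 0.20 (SE), and the sign turned to 0.28 without normalization between arrays. Eif2s2 was called reduced with the brightest probe of each gene (-0.67, limma adjusted p = 0.033) and in the probe-level fit (limma adjusted p = 0.037). Eif2s3x, the gene of the X-linked gamma subunit that the rule leaves aside, was called elevated, its log2 fold change being 0.64 ± 0.14 (SE) at a limma adjusted p of 0.032. Since Xist and Ddx3y also divided the groups, genotype and a difference in sex cannot be told apart for this gene.

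Among the eIF2B subunits, Eif2b4 (delta) had the highest log2 fold change. Its log2 signals were 8.89 and 8.98 in cKO lenses and 8.50 and 8.59 in Control lenses, which did not overlap. The log2 fold change was 0.40 ± 0.14 (SE) at a limma adjusted p of 0.11. Eif2b2 (beta) had 0.15 ± 0.15, Eif2b3 (gamma) 0.09 ± 0.15, Eif2b5 (epsilon, the catalytic subunit) -0.02 ± 0.14 and Eif2b1 (alpha) -0.07 ± 0.16 (SE), each with overlapping groups. Eif2a, a separate protein that can bring the initiator tRNA to the ribosome, had a log2 fold change of 0.23 ± 0.13 (SE) at a limma adjusted p of 0.29 with both cKO values above both Control values. The group median was 0.09, and relative to all genes it was 0.08, with 0.37 under the 3 scalings that do not match the distributions of the arrays.

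Genes downstream of eIF2 phosphorylation were given by a separate list, which partly repeats genes already known to change in these lenses. Of 8 listed targets, 5 were called, all elevated in cKO lenses, where 6.01% of all genes were called elevated. The stress-induced gene Ppp1r15a was listed with the partners described below and was called reduced. Chac1 and Trib3 passed the detection filter through the cKO arrays alone and had to be higher there. Of the 6 targets detected in both groups, 3 were called, and the median over these 6 was 0.61. Relative to all genes, Ddit3, Atf5 and Nupr1, the 3 called among these 6, stayed above 0 in all 14 settings that used the 4 arrays. Atf4 and Asns, which were not called, did so too, and Sesn2 did not. Ddit3, which encodes the stress transcription factor CHOP, had log2 signals of 8.94 and 8.63 in cKO lenses and 5.76 and 5.81 in Control lenses, which is a log2 fold change of 2.999 ± 0.16 (SE) at a limma adjusted p of 9.45e-04. Chac1, an enzyme that degrades glutathione, was above background in neither Control lens and was at least 8.99-fold higher. Trib3, a pseudokinase induced by ATF4 and CHOP, was likewise undetected in Control lenses and at least 1.88-fold higher. The 5 called genes were thus those of CHOP, Chac1 and Trib3 together with Atf5 (1.03 ± 0.21, SE), a transcription factor related to ATF4, and Nupr1 (0.79 ± 0.16), a stress-induced nuclear protein. The calls of Atf5 and Nupr1 held without Control A and were lost when any other lens was left out.

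Atf4, the transcription factor whose translation rises when eIF2 is phosphorylated, had log2 signals of 9.81 and 9.86 in cKO lenses and 9.32 and 9.48 in Control lenses, which did not overlap. Its log2 fold change of 0.44 ± 0.14 (SE) missed the threshold (limma adjusted p = 0.089). Asns, which makes asparagine, had 0.33 ± 0.14 and Sesn2, a regulator of mTORC1, -0.01 ± 0.20 (SE), and neither was called. Of the partners of eIF2 and its kinases, 4 of 6 listed were tested. Ppp1r15a, the stress-induced subunit of the eIF2 phosphatase also named GADD34, was the 1 called, with log2 signals of 8.21 and 7.32 in cKO lenses and 9.12 and 9.43 in Control lenses. It was reduced, its log2 fold change being -1.51 ± 0.29 (SE) at a limma adjusted p of 0.024, and relative to all genes it lay between -1.53 and -1.24 over 14 settings. Its call was lost without cKO B and also without Control B. Dnajc3, an inhibitor of eIF2 kinases, had 0.56 ± 0.20 (SE), Impact, an inhibitor of Gcn2 activation, 0.54 ± 0.20, and the adaptor gene Nck1 0.38 ± 0.18. In these 3 genes both cKO values lay above both Control values, and none was called by limma (adjusted p from 0.11 to 0.21). Protein phosphorylation is not measured by these arrays.

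The binding sequence of ATF4 with CHOP or a C/EBP factor was looked for as TGATGNAAN on both strands, from 250 bases before to 50 bases after each annotated start. Of the 8 eIF2 target genes, 4 hold it (Trib3, Asns, Chac1 and Nupr1), while it occurs in 4.50% of all genes with a window. These genes were listed as targets of this signalling, so that their share is a description and no test. The sequence occurs in 0 of the 40 translation factor genes with a window. This says only that these letters are not in that stretch.

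**Figure D2:**
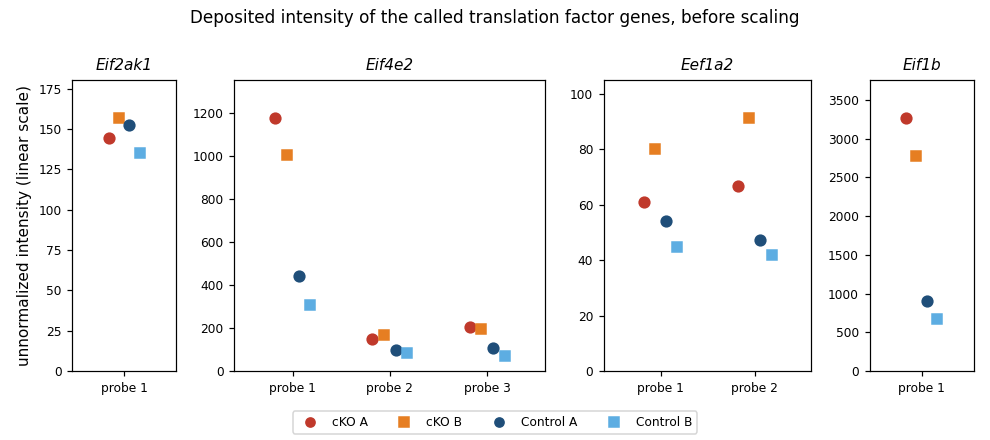
Deposited unnormalized intensity of each retained probe of the 4 called genes on a linear axis that starts at 0, with 1 symbol for each lens. The cKO lenses lie above the Control lenses for Eif1b and for all 3 Eif4e2 probes and both Eef1a2 probes, while the intensities of Eif2ak1 overlap (145 and 157 in cKO lenses, 152 and 135 in Control lenses).

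The eIF3 subunits, which form the scaffold that links the small ribosomal subunit to the mRNA, gave 0 calls by limma among 11 tested genes, and 0 had an unadjusted p under 0.05, beside 31.9% of all genes. Of the 11 genes, 10 had negative log2 fold changes, as did 5633 of all 11516 genes. The group median was -0.17. It was -0.18 relative to all genes and turned to 0.03 under the 3 scalings that do not match the distributions. Both cKO values lay below both Control values for 5 of the 11 (45.5%, beside 29.7% of all genes) and above them for 1 (9.09%, beside 32.6%). Of the 11 genes, only Eif3k exceeded 0.58 in size under the main normalization.

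Eif3k had the lowest log2 fold change of the complex, but it rested on a single lens. The log2 signals were 8.31 and 8.23 in cKO lenses, 8.44 in Control A and 9.49 in Control B. The log2 fold change was -0.70 ± 0.31 (SE) at a limma adjusted p of 0.18. Relative to all genes it was -0.18 without Control B and -1.25 without Control A, where it was called. Control B also had the largest standard error over beads among the member probes, at a median of 8.05% of the signal against 3.70% to 3.98% on the other arrays.

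Eif3f, whose start carries the longest pyrimidine run printed above, had log2 signals of 11.92 and 11.75 in cKO lenses and 12.15 and 12.18 in Control lenses. The groups did not overlap, and the log2 fold change was -0.33 ± 0.14 (SE) at a limma adjusted p of 0.16. The highest of the complex were Eif3g, a subunit that takes part in scanning, at 0.09 ± 0.14 and Eif3d, a subunit that can itself bind the cap, at -0.03 ± 0.15 (SE). Eif3e was detected on 0 arrays.

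**Figure D3:**
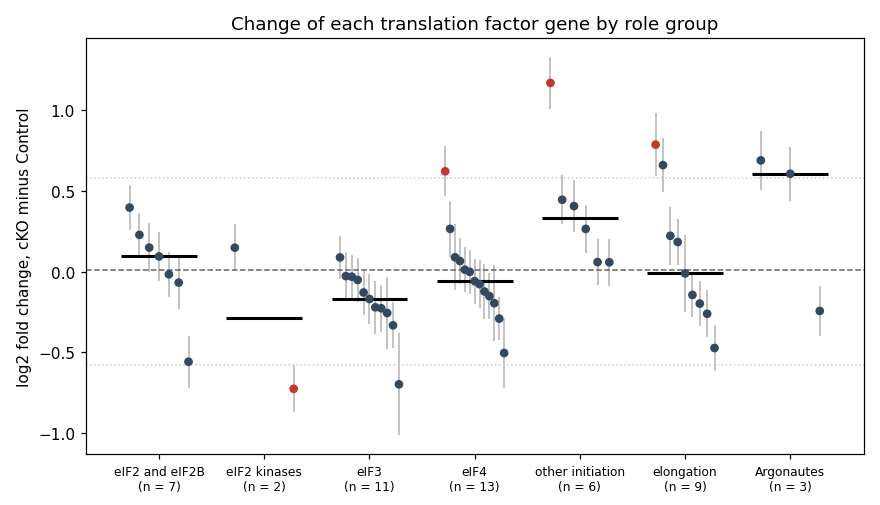
Log2 fold change (cKO minus Control) of each member with its standard error, by role group. Red points are called genes, black bars are group medians, the dashed line is the median of all genes tested (0.01) and dotted lines mark the fold threshold. The eIF3 points lie below 0 for 10 of 11 genes under quantile normalization, although their relative median turned to 0.03 under 3 other scalings, and the other initiation factors lie above 0 for 6 of 6.

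Of the eIF4 factors and eIF4E-binding proteins, 1 of 13 tested genes was called (7.69%, beside 11.7% of all genes). It was an eIF4E relative that binds the cap without eIF4G. Eif4e2, which encodes this repressor 4EHP, had log2 signals of 7.89 and 7.74 in cKO lenses and 7.31 and 7.08 in Control lenses. The groups did not overlap. Eif4e2 was elevated 1.54-fold, with a log2 fold change of 0.62 ± 0.15 (SE) at a limma adjusted p of 0.047. Its 3 probes gave 0.77 ± 0.18, 0.32 ± 0.15 and 0.77 ± 0.20 (SE), so that all pointed one way and probe 2 gave the smallest value. The call is close to the threshold. It was made in 10 of 14 settings that used the 4 arrays, and leaving out a lens kept it only when that lens was Control A.

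Eif4e itself, the cap-binding factor of general initiation, had log2 signals of 5.07 and 4.998 in cKO lenses and 5.22 and 5.86 in Control lenses. Both cKO values lay below the Control values, and Control B stood apart from the rest. The log2 fold change was -0.50 ± 0.22 (SE) at a limma adjusted p of 0.17. Without Control A it was -0.82. With the same median over detected probes it was -0.76 and was called (limma adjusted p = 0.033). With arrays set to the same median it was -0.043, and with no normalization between arrays -0.0045. Relative to all genes it was -0.19 at the smallest when a lens was left out. The difference between Eif4e and Eif4e2 was not tested.

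Eif4ebp1, a repressor that holds eIF4E when mTORC1 is inactive, had a log2 fold change of 0.26 ± 0.17 (SE) at a limma adjusted p of 0.34, with log2 signals of 8.57 and 8.53 in cKO lenses and 8.09 and 8.49 in Control lenses. Eif4g2, an eIF4G relative without the eIF4E-binding site, had -0.29 ± 0.13 (SE) at a limma adjusted p of 0.19, with 7.25 and 7.29 against 7.57 and 7.56. In both genes the groups did not overlap, and for Eif4ebp1 the gap between cKO B and Control B was small. The other 9 tested eIF4 genes lay between -0.20 and 0.09. The median of the group was -0.06, and relative to all genes it was -0.07, with 0.14 under the 3 scalings that do not match the distributions.

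Elongation factors spread to both sides, with 4 of 9 tested genes positive and 5 negative and a median of -0.01. Eef1a2, the form of eEF1A known from muscle and neurons, was called elevated. Its log2 signals were 4.99 in cKO A and 5.50 in cKO B, against 4.52 and 4.40 in Control lenses, where it was not detected above background. Its level in cKO lenses was thus at least 1.41-fold higher (limma adjusted p = 0.048). Since Eef1a2 met the detection filter through the cKO arrays alone, it had to differ, and its p and call are given as a description. The retained probes gave log2 fold changes of 0.56 ± 0.20 and 1.01 ± 0.21 (SE), and a further probe of the gene was detected on 0 arrays. The unnormalized intensities of the retained probes were 61.0 and 80.1 with 66.6 and 91.4 in cKO lenses, and 54.2 and 44.6 with 47.4 and 41.8 in Control lenses, close to background. The call was made in 8 of 13 settings that used the 4 arrays, was lost without Control A and without Control B, and could not be tested without cKO A or cKO B, as the gene was then detected on 1 array. Muscle markers were detected for 0 of 4 genes and retina markers for 1 of 5, which was Pde6b, above background on the cKO arrays alone. The source of the Eef1a2 signal was not tested.

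Eef1a1, the general form, had log2 signals of 14.45 and 14.43 in cKO lenses and 14.32 and 14.19 in Control lenses. Its log2 fold change was 0.18 ± 0.14 (SE), with a 95% confidence interval from -0.15 to 0.51, and it turned to -0.27 with the deposited normalized table and to -0.13 with the same median over detected probes. The other subunits of the eEF1 complex, which reload eEF1A with GTP, gave 0 calls by limma among the 3 named here. Of these, 1 (Eef1b2) had an unadjusted p under 0.05, beside 31.9% of all genes. Eef1b2 had log2 signals of 9.28 and 9.40 in cKO lenses and 9.89 and 9.73 in Control lenses, and its log2 fold change was -0.47 ± 0.14 (SE) at a limma adjusted p of 0.076. Eef1g had -0.26 ± 0.14 and Eef1d 0.22 ± 0.18 (SE). For Eef1b2 and Eef1g both cKO values lay below both Control values, and without normalization between arrays their signs turned, to 0.36 and 0.25. With the deposited normalized table Eef1g was called reduced, at -0.64 (limma adjusted p = 0.042).

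Eef1e1, which carries an elongation factor name but whose protein belongs to the aminoacyl-tRNA synthetase complex, came closest to the threshold. Its log2 signals were 7.63 and 7.93 in cKO lenses and 7.01 and 7.24 in Control lenses, which did not overlap. The log2 fold change was 0.66 ± 0.17 (SE) at a limma adjusted p of 0.051, and it was called in 7 of 14 settings that used the 4 arrays. Eef2, the translocase, had -0.20 ± 0.14, Eif5a, which eases peptide bond formation at difficult sequences, -0.14 ± 0.14, and Eefsec, the factor for selenocysteine, -0.01 ± 0.24 (SE). None of these 3 was called by limma (adjusted p from 0.36 to 0.98), and 0 of them had an unadjusted p under 0.05. Without normalization between arrays the signs of all 3 turned, and Eef2 (0.65) and Eif5a (0.70) were called elevated. Eef2k, the kinase that inhibits eEF2, was detected on 0 arrays.

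The Argonautes, small RNA-binding proteins of silencing complexes, entered through the older Eif2c names in the files. Ago2, the form that cuts its target, had log2 signals of 6.94 and 6.55 in cKO lenses and 6.17 and 5.95 in Control lenses. Ago3 had 5.26 and 4.93 against 4.56 and 4.43. The groups did not overlap for either gene. The log2 fold changes were 0.69 ± 0.18 (SE) for Ago2 at a limma adjusted p of 0.054 and 0.60 ± 0.17 for Ago3 at one of 0.059. Both were called with the replicate block described in the closing section. Ago2 was called in 5 and Ago3 in 4 of the 13 settings that used the 4 arrays. Ago3 lay close to background and was detected on both cKO arrays and 1 Control array. Its probes met the detection filter mainly through the cKO arrays, so that its values are a description. With the same median over detected probes Ago3 gave 0.061 (limma adjusted p = 0.82). Ago4 had -0.24 ± 0.16 (SE) at a limma adjusted p of 0.33, with both cKO values below both Control values, and its sign turned without normalization between arrays. The value of Ago2 averages 3 probes, 2 of which carry RIKEN names in the files and lie outside the naming rule. The 1 Ago2 probe within the rule gave 0.51 ± 0.26 (SE) at a limma adjusted p of 0.23 and was not called.

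**Figure D4:**
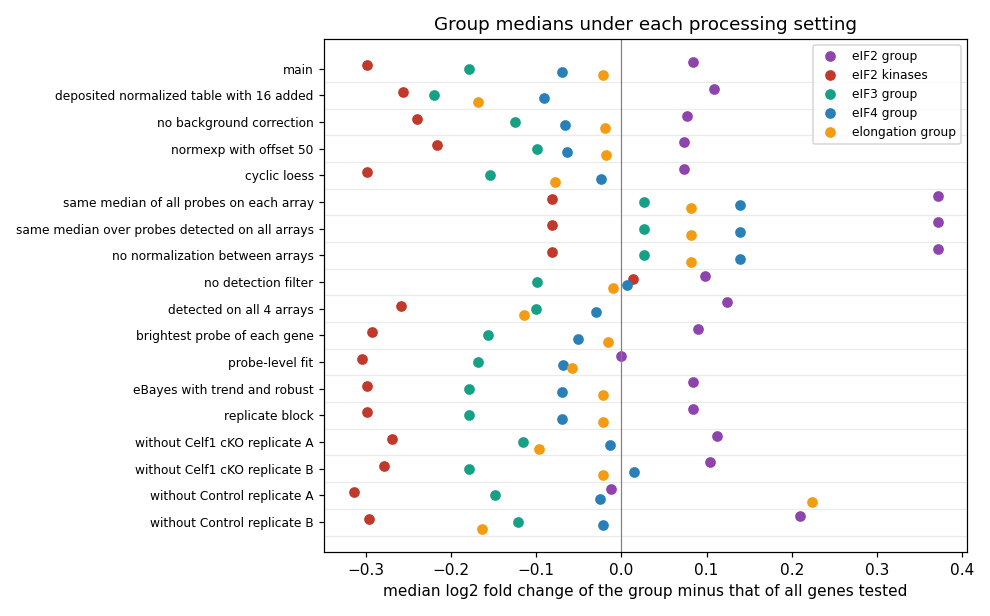
Median log2 fold change of 5 role groups minus the median of all genes tested, under each processing setting. The eIF3 group lies at -0.18 in the main setting and at 0.03 under the 3 scalings that do not match distributions, and the eIF2 group moves from 0.08 to 0.37 there. The eIF2 kinases, a median of 2 genes in most settings, lie below 0 except without a detection filter, where undetected kinases enter.

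Other genes of translation and its control, listed apart from the members, gave 7 calls higher (14.6%, beside 6.01% of all genes) and 4 lower (8.33%, beside 5.66%) among 48 tested of 51 listed. The higher calls include Chac1 and Trib3, which were detected on the cKO arrays alone, and 9 of the 11 calls are of genes detected in both groups. These lists were chosen with earlier results known. Of the mTORC1 and MNK list, 2 were called higher (18.2%) and 1 lower (9.09%) among 11 tested. Ddit4, an inhibitor of mTORC1 also named REDD1, had log2 signals of 9.07 and 9.13 in cKO lenses and 7.44 and 7.13 in Control lenses, a log2 difference of 1.81 ± 0.16 (SE) at a limma adjusted p of 0.0034. Larp1, which binds mRNAs with a pyrimidine start, had 5.88 and 6.10 against 4.92 and 4.66, a log2 difference of 1.20 ± 0.16 (SE) at a limma adjusted p of 0.011. In both genes the groups were well apart, and Ddit4 was called in all 14 settings and all 4 fits that left out a lens, while Larp1 was called in 11 of 13 settings and lost its call without cKO B.

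Tsc2, a subunit of the complex that restrains mTORC1, was reduced, with log2 signals of 10.54 and 9.84 in cKO lenses and 11.13 and 11.55 in Control lenses and a log2 fold change of -1.15 ± 0.26 (SE) at a limma adjusted p of 0.036. Pabpc1, the main poly(A)-binding protein and a partner of eIF4G, was reduced, its log2 fold change being -0.76 ± 0.19 (SE) at a limma adjusted p of 0.046. Hbs1l, which rescues stalled ribosomes, was reduced, at a log2 fold change of -0.77 ± 0.15 (SE) at a limma adjusted p of 0.026. The calls of Pabpc1 and Hbs1l held without Control A and were lost when any other lens was left out, and that of Tsc2 was lost without cKO B or Control B. Mitochondrial translation factors gave 0 calls by limma among 9 tested genes, with 1 at an unadjusted p under 0.05, beside 31.9% of all genes. Their log2 fold changes ran from -0.45 to 0.28. The hypusine enzymes that modify eIF5A and the eIF5 mimics and reinitiation factors gave 0 calls by limma among 2 and 4 tested genes, with 0 at an unadjusted p under 0.05.

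The 10 member genes below the filter were Ago1, Eef2k, Eif1ax, Eif2ak3, Eif2ak4, Eif2s1, Eif3e, Eif4e1b, Eif4ebp3 and Eif5a2. Their unnormalized intensities lay between 35.7 and 56.8 on all arrays, and 9 of the 10 were detected on 0 arrays. Several of them are factors that every cell uses, such as Eif2s1 and Eif3e, so that a probe below background here is not evidence that the mRNA is missing. Of the 25 members with several retained probes, 15 had probes that all gave the same sign.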

How the data were processed

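Lens RNA of 2 Celf1 cKO and 2 Control mice at postnatal day 6 was hybridised to arrays. The authors deposited unnormalized and rank-invariant normalized signal intensity, the p-value of detection of every probe, and the number of beads read (another measure). Unnormalized intensity of 45263 probes (18 lines with shifted cells were left out) was corrected with neqc of limma (version 3.58.1, R 4.3.3; offset 16), quantile normalized and transformed to log2. Kept probes had a detection p-value under 0.05 on at least 2 arrays, and those of the same gene were averaged. Groups were compared with lmFit and eBayes (two-sided), and p-values were adjusted by Benjamini-Hochberg across 11516 genes. The adjusted p under 0.05, the absolute log2 fold change over 0.58 and the mean signal over 4.6 follow the study, which applied a count model not used here on intensities. Genes were named through RefSeq (GRCm38.p6; Python 3.11.15 and pandas 2.3.3). For a gene detected on no array of a group, the bound sets the brighter mean against the higher of its own value and the lowest detected signal.

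Members, gene lists and tests were chosen with earlier results of these data known. The text names every called member, every detected eIF2 and eIF2B subunit and eIF2 kinase, and the 2 highest and 2 lowest of each other role group; Eef1a1, Eef1d, Eef2, Eif1ad, Eif5a and Eefsec were added after their values were seen. The fit was tested on simulated data. Alternatives changed the table, background correction, scaling, detection filter, probe rule, variance model and fold threshold, used the replicate letter as a block, or left out each lens. The number of arrays limits the precision: permuting 2 against 2 arrays cannot bring 1 gene under the threshold.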

Additional observations from a re-analysis of the deposited data

How the results depend on the processing

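The number of called members followed the scaling between arrays. Against 4 in the main analysis (3 elevated, 1 reduced), 35 were called with arrays set to the same median and 37 with no normalization between arrays, all elevated, and 8 with the same median over probes detected on all 4 arrays (3 elevated, 5 reduced). No background correction and normexp with offset 50 gave 1 each, which was Eif1b. No detection filter and treat against the fold threshold gave 0 by limma, with 18 and 1 members at an unadjusted p under 0.05. Leaving out 1 lens gave 0 to 5, namely 0 without Control B, 1 without either cKO lens and 5 without Control A. Of all genes, 1344 were called (51.5% elevated), against 5417 (97.3%), 5788 (97.7%) and 2690 (24.8%) under the 3 scalings, which put the median over all genes at 0.53, 0.57 and -0.19. Normexp gave 725, no detection filter 155, treat 84, and leaving out a lens 119 to 1256.

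The replicate letters are not said to pair lenses, and the A minus B differences of the groups correlated at -0.01 over all genes. With the replicate block 7 members were called (Ago2, Ago3 and Eef1e1 besides the 4) and 1757 genes in all.

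Group medians relative to all genes moved as follows. Under the 3 scalings that do not match distributions they were 0.37 for eIF2 and eIF2B, -0.081 for the eIF2 kinases, 0.026 for eIF3 and 0.14 for eIF4, against 0.08, -0.30, -0.18 and -0.07. The kinases gave -0.26 with the deposited table plus 16, -0.24 with no background correction, -0.22 with normexp, 0.014 with no detection filter, -0.26 with detection on all 4 arrays, -0.29 with the brightest probe and -0.30 at probe level. The eIF3 group gave -0.13 with no background correction and -0.10 with normexp, with no detection filter and with detection on all arrays. The eIF4 group gave -0.024 with cyclic loess, 0.0062 with no detection filter and -0.030 with detection on all arrays. The eIF2 group gave -0.00013 at probe level, and the elongation group -0.17 with the deposited table, against -0.02. Leaving out a lens gave -0.012 to 0.21 for eIF2, -0.31 to -0.27 for the kinases, -0.18 to -0.12 for eIF3, -0.025 to 0.015 for eIF4 and -0.16 to 0.22 for elongation. The cause of these moves was not tested.

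With arrays set to the same median, and then with no normalization, signs turned among the named genes for Eif2ak1 (0.029, 0.067), Eif2s2 (0.24, 0.28), Eif2b1 (0.72, 0.76), Eif2b5 (0.80, 0.84), Eif3d (0.75, 0.79), Eif3f (0.39, 0.43), Eif3k (0.12, 0.16), Eif4g2 (0.32, 0.36), Eef1b2 (0.32, 0.36), Eef1g (0.22, 0.25), Eef2 (0.61, 0.65), Eif5a (0.66, 0.70), Eefsec (0.28, 0.32) and Ago4 (0.046, 0.084), where the all-gene median lay above 0. Of the 28 members with a negative log2 fold change in the main analysis, 26 and 27 were positive there, and 12 and 14 of these were called. With the same median over detected probes, Eif2b5 gave 0.076 and Eif3d 0.028, and with cyclic loess Eif3d gave 0.049. Eefsec gave 0.028 with no detection filter. The same median over detected probes turned Eef1a1 to -0.13. The deposited table turned Eef1a1 to -0.27, Eif3g to -0.025 and Eif5 to -0.0046. Leaving out a lens turned the sign for some genes near 0, with ranges of -0.045 to 0.16 for Eif1a, -0.23 to 0.098 for Eif2b1, -0.038 to 0.23 for Eif2b3, -0.060 to 0.026 for Eif2b5, -0.12 to 0.066 for Eif3d, -0.36 to 0.33 for Eefsec and -0.0089 to 0.13 for Eif5. None of these except Eif2ak1 was called in the main analysis. A fit with 1 lens in a group assumes that it varies like the other group. Slide as a block was not run, since the files give no slide. Members near background, such as Eef1a2, Eif3h and Eif4e, are limited by signal.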
